A study of Mus musculus with 7 samples.

Results

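The ligands of the TNF superfamily were examined in type 2 innate lymphoid cells (ILC2s) of resting and transplanted mouse hearts. ILC2s are tissue lymphocytes without antigen receptors that respond to alarmins through the interleukin 33 receptor ST2. The family members were taken by symbol from a list of 10 genes, Tnfsf4, Tnfsf8, Tnfsf9, Tnfsf10, Tnfsf11, Tnfsf14, Cd40lg, Cd70, Fasl and Ltb, and all 10 were found among the 55335 identifiers of the deposited tables. The list was selected on measured values, the counts and FPKM of these same libraries, with the levels of Tnfsf4 among them. The members' levels in the 2 groups are therefore given as a description and support no inference.

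RNA came from cells sorted by flow cytometry as positive for CD45 and ST2 and negative for lineage markers. Naive hearts gave 3 libraries. Cardiac allografts from Balb/C donors in C57BL/6 (B6) recipients, a model of acute rejection, gave 4 libraries, harvested at 7 days. Cells of 4 to 7 hearts went into each library, and the series describes these pools as biological replicates. The labels carry a time of 7 days for the naive hearts too, leave the genotype blank, and state neither the strain of the naive hearts nor whether the sorted cells of a graft came from the donor or the recipient.

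Ligands of this family are mostly membrane proteins that act as trimers, on the cell surface or after shedding, and bind receptors of the TNF receptor superfamily. The receptors signal through TRAF adaptors to NF-kappaB, or through death domains to caspases. OX40L, the product of Tnfsf4, engages OX40 on activated T cells, and in ILC2s of the lung and adipose tissue it is known as a signal by which these cells act on helper and regulatory T cells.

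Library depth ran from 29107326 to 53044907 counts. Values are given as CPM, counts scaled to the library total. A count of 0 allows up to 3 counts, or 0.0566 to 0.103 CPM depending on the library. This floor covers counting error only, since the amplification protocol in the labels names no molecular identifiers. It does not cover transcripts lost before sequencing. Genes with a count above 0 numbered 15820, 20254 and 13864 in naive replicates 1 to 3 and 19235 to 21354 in the allografts. Naive replicate 2 stood apart. Its 13 ILC2 markers summed to 1176 CPM, against 11820 and 15860 CPM in the other naive libraries and 11830 to 12520 CPM in the allografts. Il1rl1, which encodes ST2, was at 6.79 CPM there and at 344 to 756 CPM in the other 6 libraries. Gata3, the lineage factor of ILC2s, was at 34.8 CPM there, 654 and 970.2 CPM in the other naive libraries and 706 to 876 CPM in the allografts. Rora and Il7r were at 62.6 and 20.1 CPM in naive replicate 2, and at 1025 to 2993 CPM and 326 to 775 CPM in the other 6 libraries. The 12 kidney markers summed to 10960 CPM in naive replicate 2, against 79.5 to 318 CPM in the others, and mitochondrial genes took 26.5% of that library's counts, against 2.04% to 3.11%. Results are therefore also given without it. The naive group then has 2 libraries.

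Across all 7 libraries, Tnfsf4, Tnfsf8 and Tnfsf14 were higher in every allograft library than in every naive library. No member was lower in every allograft library. By the same criterion 12.5% of the 17015 genes tested were higher in every allograft library and 2.15% were lower. Without naive replicate 2, Fasl joined these 3 members and again no member was lower throughout, where 21% and 7.15% of the 18037 genes then tested were. Of the 10 members, 9 passed the filter on low counts and Cd40lg did not. In the edgeR quasi-likelihood fit over all genes with Benjamini-Hochberg adjustment, 1 of the 9, Tnfsf4, had an adjusted p under 0.05, where 0.0353% of all genes tested did and 0.0294% did with a higher allograft level. Without naive replicate 2, 3 of the 9 did, Tnfsf4, Tnfsf8 and Fasl, where 3.1% of all genes tested did and 3% did with a higher allograft level. Tnfsf4 alone passed without naive replicate 1 (0.568% of genes), without naive replicate 3 (0.0372%), with DESeq2 size factors (0.0235%), with no low-count filter (0.0142%) and with a mean of at least 50 counts (0.0342%). Leaving out any 1 allograft library ended the call of Tnfsf4, and no other member then passed, where 0% of all genes tested did. Because the members were chosen with this contrast known, nothing is read from these counts. In bulk libraries of this kind, fewer cells of a type and less RNA per cell cannot be told apart.

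**Figure D1:**
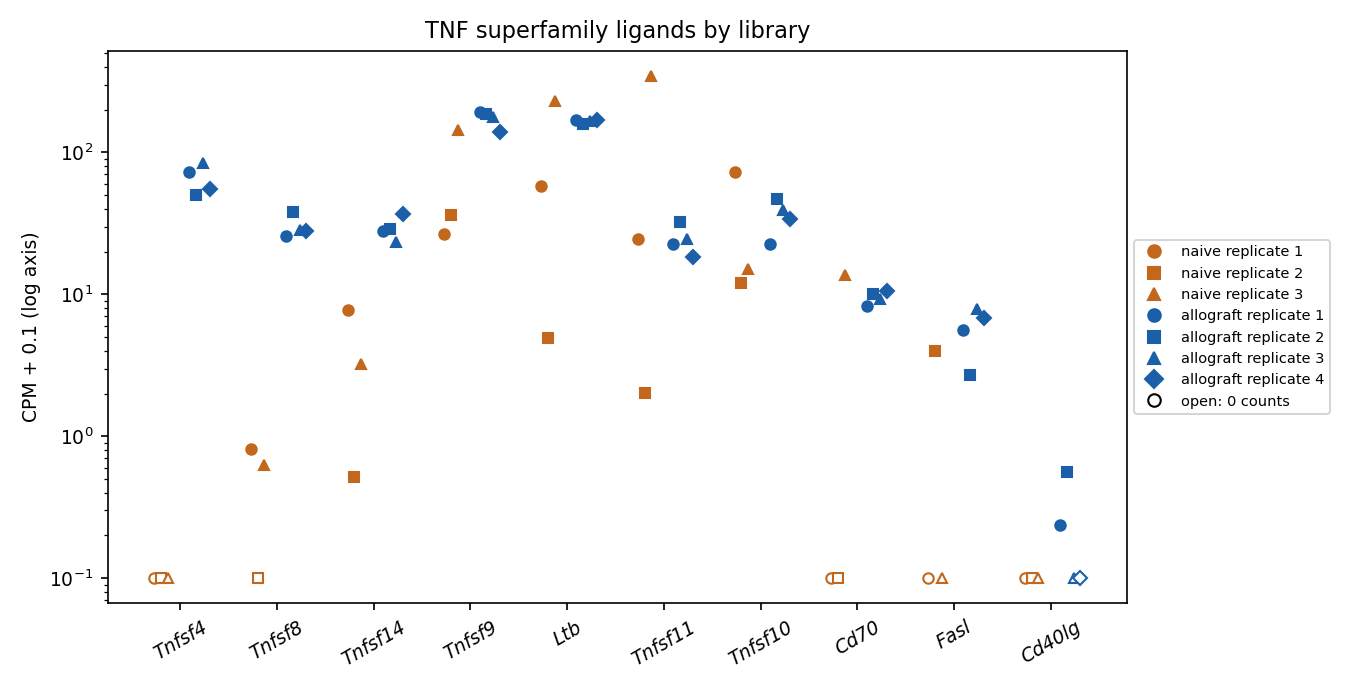
CPM of the 10 TNF superfamily ligands in each library, plotted as CPM + 0.1 on a log axis. Orange points are the 3 naive and blue points the 4 allograft libraries, with 1 symbol shape per replicate number and open symbols for 0 counts. For Tnfsf4, Tnfsf8 and Tnfsf14 the blue points all lie above the orange points, and the naive points of Tnfsf11 run from 1.91 to 347 CPM.

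Tnfsf4 (ENSMUSG00000026700, chr1:161395409-161418410, plus strand of GRCm38) encodes OX40L. It had 0 counts in each of the 3 naive libraries. In allograft replicates 1 to 4 it had 3197, 1627, 3418 and 1615 counts, or 72.6, 50.2, 83.7 and 55.5 CPM. Each allograft library thus lay far above the floor that a count of 0 allows in the naive libraries. The allograft mean of 65.5 ± 15.4 CPM (SD, n = 4) was at least 1027-fold higher than the mean naive floor of 3 counts per library, and at least 1045-fold higher without naive replicate 2. These bounds allow for counting error only, and do not bound the fold in the cells. A count of 0 in all naive libraries was found for 622 of the 17015 genes tested (3.66%), and 333 of them (1.96%) also had more than 3 counts in every allograft library.

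Transcripts of other immune cells were also present, and some marker sums differed between the 2 groups while others overlapped. Macrophage and monocyte markers summed to 2.49 to 476 CPM in the naive and 171 to 267 CPM in the allograft libraries. For mast cells and basophils the sums were 73.7 to 669 CPM in the naive and 271.5 to 307 CPM in the allograft libraries. The 9 dendritic cell markers summed to 12.7 to 31.9 CPM in the naive and 130.2 to 181 CPM in the allograft libraries. In the allografts all 9 had more than 3 counts in each library, while 7 of the 9, among them Flt3 and Ccl22, were at 0 in naive replicates 1 and 3. Xcr1 made up all or nearly all of the sum in those 2 libraries. It stood at 12.67 and 30.95 CPM there, and at 13.5 to 25.4 CPM in the allografts. Cd209a was at 18.2 CPM in naive replicate 2, above the 3.40 to 10.89 CPM of the allografts. The 9 B cell markers had sums of 117 CPM in naive replicate 1, 10.9 CPM in replicate 2 and 0 CPM in replicate 3, and 94.4 to 150.3 CPM in the allografts. Of these, Ms4a1, Pax5 and Fcer2a were at 0 in all naive libraries. Pax5 was also at 0 in allograft replicate 3, and Fcer2a in allograft replicates 2 and 3. Cd79b made up nearly all of the sum in naive replicate 1, with 117.1 CPM there and 34.6 to 47.75 CPM in the allografts. The 7 eosinophil markers summed to 1.43 to 26.8 CPM in the naive and 92.2 to 204 CPM in the allograft libraries, with Prg2, Epx and Siglecf at 0 in all naive libraries. Most of the allograft sums came from Prg2, at 65.0 to 144.4 CPM. Epx was also at 0 in allograft replicate 3, and Siglecf in allograft replicate 2. Ear1 and Ear2 were highest in naive replicate 3, at 8.99 and 17.85 CPM, against 0 to 8.34 and 2.81 to 14.27 CPM in the allografts. Activated B cells and dendritic cells are themselves known to carry OX40L, and the part of other cells in the level of Tnfsf4 was not tested.

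Per gene length, Tnfsf4 stood at 30.7 ± 7.26 FPKM (SD, n = 4) in the allografts. On the same scale the allograft levels were 20.03 ± 6.48 FPKM for Ccl22, a chemokine of mature dendritic cells, and 3.26 ± 0.703 FPKM for the dendritic cell growth factor receptor Flt3. The level of Ms4a1, which encodes the B cell protein CD20, was 3.34 ± 1.17 FPKM. Tnfsf4 was above Ms4a1 and Flt3 in each allograft library, and above Ccl22 in each, although the ranges of Tnfsf4 and Ccl22 over the 4 libraries overlapped. Other B cell markers were higher than Ms4a1, with Cd79b at 24.65 ± 3.495 FPKM and Cd79a at 16.8 ± 3.82 FPKM in the allografts. In allograft replicate 2, Cd79b (26.2 FPKM) was above Tnfsf4 (23.6 FPKM), and in replicates 1, 3 and 4 it was below. What these levels mean for the source of Tnfsf4 was not tested.

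**Figure D2:**
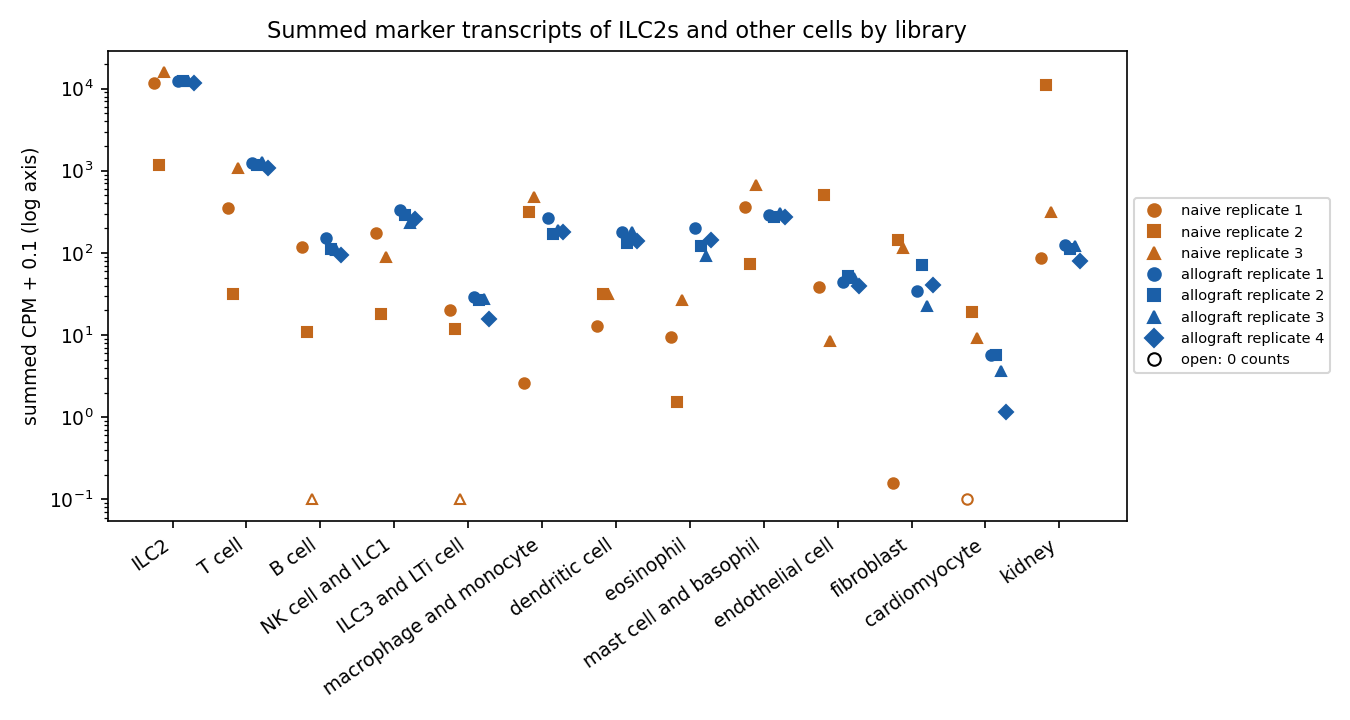
Summed CPM of marker genes of ILC2s, 11 other cell types and kidney, plotted as CPM + 0.1 on a log axis. Orange points are the 3 naive and blue points the 4 allograft libraries. The ILC2 sum of naive replicate 2 lies at 1176 CPM, below all other libraries, and the dendritic cell and eosinophil sums of the allografts lie above those of every naive library.

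The genes whose pattern over the 7 libraries was nearest to that of Tnfsf4 were taken by the smallest root mean square difference of centred log2(CPM + 0.1). They were Jchain, the joining chain of secreted antibodies (difference 0.40), Igha, the antibody heavy chain of class A (0.49), Prg2, an eosinophil granule protein (0.50), Retnla, a resistin-like secreted protein (0.77), and Ms4a1 (0.78). All 5 had 0 counts in every naive library, a match that the measure itself favours because Tnfsf4 was at 0 there too. This order rests on the choice of settings: 3 of the 5 were again among the nearest 5 with a pseudocount of 1, and 1 of the 5 without naive replicate 2.

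Tnfsf8 (ENSMUSG00000028362, chr4:63831308-63861347, minus strand) encodes CD30 ligand, a costimulatory ligand of activated lymphocytes. It had 38, 0 and 23 counts in naive replicates 1 to 3, or 0.716, 0 and 0.528 CPM. The allograft replicates 1 to 4 had 25.8, 37.9, 28.5 and 28.1 CPM. Naive replicate 2 was at its detection floor, the other naive libraries were under 1 CPM, and the groups did not overlap. The fitted log2 fold change, allograft over naive, was 6.14 (SE 1.40), and 5.54 (SE 0.52) without naive replicate 2.

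Tnfsf14 (ENSMUSG00000005824, chr17:57189492-57194177, minus strand) encodes LIGHT, which binds the lymphotoxin beta receptor and HVEM. Its naive levels were 7.67, 0.418 and 3.12 CPM, and its allograft levels 27.98, 28.8, 23.3 and 36.5 CPM. The highest naive library, replicate 1, was below the lowest allograft library, replicate 3. On the log2 scale the fitted fold change was 2.93 (SE 0.86), and 2.40 (SE 0.54) without naive replicate 2.

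RefSeq start sites of build GRCm38.p6 were on hand for 6 of the 10 members, Fasl, Tnfsf10, Tnfsf8, Tnfsf11, Ltb and Tnfsf14. The 250 bases before the start are shown for Tnfsf8 and Tnfsf14, the members with such a window whose groups did not overlap, and for Tnfsf11, whose naive libraries were farthest apart. They lie at chr4:63861285-63861534, chr17:57194182-57194431 and chr14:78308044-78308293, all on the minus strand, and are written 5′ to 3′ toward the gene. Gene coordinates in this text are from GENCODE, whose starts can differ from those of RefSeq. The window of Tnfsf8 therefore overlaps the stated gene from chr4:63861285 to 63861347, and the windows of Tnfsf10 and Ltb also run into their stated genes. Capitals mark the match to an AP-1 motif.
Tnfsf8: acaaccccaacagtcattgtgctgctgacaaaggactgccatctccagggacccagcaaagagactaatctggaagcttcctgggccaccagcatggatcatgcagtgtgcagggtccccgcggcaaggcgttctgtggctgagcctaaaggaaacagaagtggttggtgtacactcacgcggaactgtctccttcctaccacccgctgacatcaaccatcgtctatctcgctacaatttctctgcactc
Tnfsf14: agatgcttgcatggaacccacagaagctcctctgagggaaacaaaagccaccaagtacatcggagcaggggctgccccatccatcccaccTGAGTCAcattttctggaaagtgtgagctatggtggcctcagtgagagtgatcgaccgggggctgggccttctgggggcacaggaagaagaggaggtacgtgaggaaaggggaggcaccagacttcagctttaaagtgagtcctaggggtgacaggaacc
Tnfsf11: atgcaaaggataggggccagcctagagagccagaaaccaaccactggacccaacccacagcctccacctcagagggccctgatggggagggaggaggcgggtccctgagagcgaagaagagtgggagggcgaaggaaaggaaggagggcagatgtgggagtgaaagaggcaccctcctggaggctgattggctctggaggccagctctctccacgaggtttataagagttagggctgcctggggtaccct

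Both strands of these windows were searched for 4 motifs: TGANTCA for AP-1, TTCNNNGAA for STAT factors, GATAA for GATA factors, and the NF-kappaB consensus. Tnfsf14 held the AP-1 letters 160 to 154 bases before its start, as did 6.75% of 32851 promoter windows of the same length. Ltb held an NF-kappaB match (7.25% of windows) 87 to 78 bases before its start and a STAT match (7.02%) 172 to 164 bases before it, with no overlap between them. GATAA was in none of the 6 windows and in 22.6% of all windows. The windows of Tnfsf8, Tnfsf11, Tnfsf10 and Fasl held none of the 4 motifs. These matches describe letters in the window and do not show binding.

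In the allografts, the most abundant ligand transcripts per gene length were those of Tnfsf9 and Ltb. Tnfsf9 (ENSMUSG00000035678, chr17:57105325-57107757, plus strand) encodes 4-1BB ligand, a costimulator of T cells. Its naive levels were 26.5, 36.2 and 143 CPM, and its allograft levels 194, 187, 179 and 139 CPM. Naive replicate 3 lay just above allograft replicate 4, so the groups overlapped by those libraries. The fitted log2 fold change was 1.19 (SE 0.57), 0.98 (SE 0.64) without naive replicate 2 and 2.14 (SE 0.39) without naive replicate 3. The antisense gene Gm11110 overlaps exons of Tnfsf9. It held 111 to 699 counts per library, and without a stated use of strand reads of the 2 genes cannot be told apart.

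Ltb (ENSMUSG00000024399, chr17:35194439-35196320, plus strand) encodes lymphotoxin beta, which with lymphotoxin alpha forms the ligand of the lymphotoxin beta receptor. Its naive levels were 58.3, 4.79 and 230.1 CPM, and its allograft levels 169, 159, 166 and 169.9 CPM. Replicate 3 was above the narrow allograft range and replicates 1 and 2 were below it. Allograft over naive, the fitted log2 fold change was 0.70 (SE 0.92), 0.14 (SE 0.51) without naive replicate 2 and 2.35 (SE 0.81) without naive replicate 3.

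Tnfsf11 (ENSMUSG00000022015, chr14:78277445-78308043, minus strand) encodes RANKL, a ligand known for osteoclast and lymph node development. It had 1291, 87 and 15113 counts in naive replicates 1 to 3, or 24.3, 1.91 and 347 CPM. The allografts had 22.4, 32.0, 24.4 and 18.3 CPM. Naive replicate 3 alone was high, and naive replicate 1 lay inside the allograft range. The fitted log2 fold change was -2.42 (SE 1.26), -3.01 (SE 0.86) without naive replicate 2, and 0.85 (SE 0.82) without naive replicate 3, so its sign rested on that library. RANKL is also a product of type 3 innate lymphoid cells and lymphoid tissue inducer cells, and their part in this level was not tested. Of their markers, Il22 and Il17a were at 0 counts in naive replicates 2 and 3, and Il23r and Ccr6 were at 0 counts in all 3 naive libraries. The T cell markers summed to 1085 CPM in that library, 348 and 31.1 CPM in naive replicates 1 and 2 and 1070 to 1271 CPM in the allografts, and the part of T cells was not tested. Most of the sum in naive replicate 3 came from Trbc1 (543 CPM), Trbc2 (363 CPM) and Cd3g (124 CPM). Cd3d stood at 32.5 CPM there, and ranged from 1.68 to 8.64 CPM elsewhere. Cd4 had 505 counts there (11.6 CPM), 21 counts in the fourth allograft library and 0 elsewhere. Cd3e was at 0.665 CPM in naive replicate 3, and Cd247, Cd8a, Cd8b1 and Cd5 were at 0.

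Tnfsf10 (ENSMUSG00000039304, chr3:27317028-27342427, plus strand) encodes TRAIL, a ligand of death receptors. Its naive levels were 72.5, 11.9 and 15.0 CPM, and its allograft levels 22.7, 46.6, 39.0 and 33.8 CPM. Naive replicate 1 exceeded every allograft library while the other naive libraries lay below them all. Its fitted log2 fold change was 0.02 (SE 0.61). It was -0.33 without naive replicate 2 (SE 0.62) and also without naive replicate 3 (SE 0.58), 1.1 without naive replicate 1 (SE 0.43), and -0.11 with DESeq2 size factors, so no direction can be given.

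Cd70, Fasl and Cd40lg were each at 0 counts in at least 2 naive libraries. Cd70 (ENSMUSG00000019489, chr17:57145997-57149777, minus strand) encodes the ligand of CD27. It had 0, 0 and 593 counts in naive replicates 1 to 3, or 13.6 CPM in replicate 3, and 8.18, 10.03, 9.15 and 10.4 CPM in the allografts. Naive replicate 3 was the highest of all 7 libraries. For Cd70 the fitted log2 fold change was 0.99 (SE 2.17), and it was 0.40 (SE 1.85) when naive replicate 2 was left out. Without naive replicate 3 the remaining naive libraries were at 0, and the allograft mean was at least 154-fold above their floor.

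Fasl (ENSMUSG00000000817, chr1:161780689-161788495, minus strand) encodes Fas ligand, which triggers apoptosis through the receptor Fas. It had 0, 178 and 0 counts in naive replicates 1 to 3, and the 3.91 CPM of replicate 2 came from the library that stood apart. The allografts had 5.52, 2.62, 7.83 and 6.77 CPM, and replicate 2 of them lay below the naive replicate 2. The fitted log2 fold change was 1.55 (SE 2.20). Without naive replicate 2 the allograft mean was at least 90.7-fold above the naive floor. The 7 markers of NK cells and ILC1s, which are known to carry Fas ligand, had sums of 17.9 to 174 CPM in the naive libraries and 234 to 332 CPM in the allografts, and the part of those cells was not tested. Gzma made up most of each library's sum, with 11.3 to 174 CPM in the naive libraries and 185 to 265 CPM in the allografts. Klrb1c was at 0, 1.96 and 0 CPM in naive replicates 1 to 3 and 10.4 to 20.8 CPM in the allografts. Ncr1 was at 0, 2.37 and 28.8 CPM, and 11.4 to 26.8 CPM in the allografts. Prf1 was at 0, 2.29 and 1.88 CPM, and 3.15 to 9.99 CPM in the allografts. Klra8 and Tbx21 were at 0 in all naive libraries, and at 1.045 to 5.215 and 1.738 to 7.95 CPM in the allografts. Eomes was at 0.641, 0 and 0 CPM, and 0 to 4.81 CPM in the allografts.

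Cd40lg (ENSMUSG00000031132, chrX:57212143-57224042, plus strand) encodes CD40 ligand, the helper T cell signal to B cells and dendritic cells. It had 6 and 15 counts in allograft replicates 1 and 2 and 0 counts in the other 5 libraries. It did not pass the filter on low counts. With no such filter it was tested and did not pass (edgeR adjusted p = 0.454). With counts this low, a difference between the groups was not detectable for Cd40lg.

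**Figure D3:**
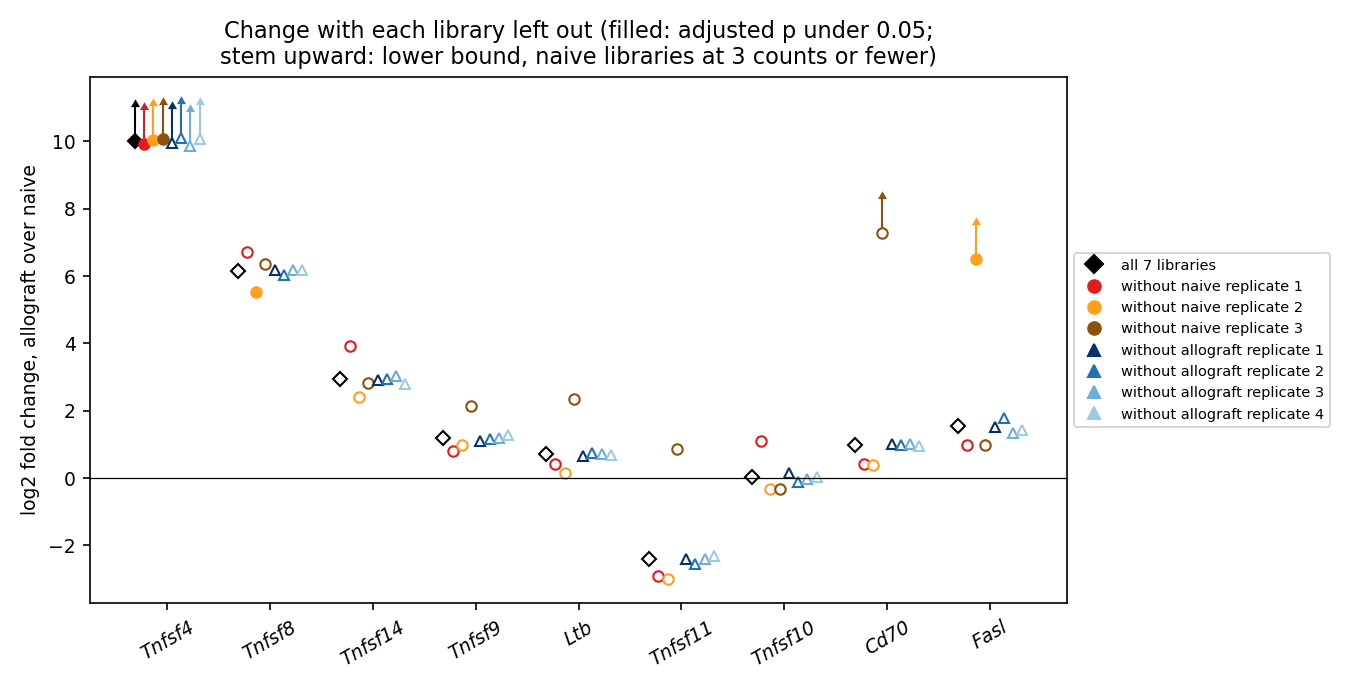
Log2 fold change, allograft over naive, of the 9 tested ligands with all 7 libraries and with each library left out in turn. Filled symbols have an adjusted p under 0.05, and an upward stem marks a lower bound where the naive libraries in the fit held at most 3 counts. Without naive replicate 3, Tnfsf11 moves from -2.42 to 0.85, and for Tnfsf4, filled symbols remain only where a naive library or no library is left out.

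The order of the ligands was compared per gene length, in FPKM, the deposited values scaled by library size and gene length. In the allografts Tnfsf9 was highest at 117 ± 16.2 FPKM (SD, n = 4), followed by Ltb at 94.6 ± 2.84, Tnfsf4 at 30.7 ± 7.26, Tnfsf14 at 13.6 ± 2.57, Cd70 at 9.70 ± 1.05, Tnfsf11 at 9.39 ± 2.22, Tnfsf8 at 6.82 ± 1.23, Tnfsf10 at 5.83 ± 1.66, Fasl at 2.53 ± 1.01 and Cd40lg at 0.0979 ± 0.146 FPKM. The ranges of Tnfsf9 and Ltb overlapped, and Tnfsf9 was above Ltb in 3 of 4 libraries. Neighbours in the order from Cd70 through Tnfsf11 and Tnfsf8 to Tnfsf10 also overlapped. Cd70 was above Tnfsf11 in 1 of 4 libraries, while Tnfsf11 was above Tnfsf8, and Tnfsf8 above Tnfsf10, in 4 of 4. Ltb and Tnfsf4, Tnfsf4 and Tnfsf14, Tnfsf14 and Cd70, Tnfsf10 and Fasl, and Fasl and Cd40lg did not overlap.

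The naive libraries did not share an order. Ltb was highest in naive replicate 1 with 33.6 FPKM, Tnfsf9 in replicate 2 with 25.7 FPKM, and Tnfsf11 in replicate 3 with 137 FPKM. Without naive replicate 2, 6 of the 10 ligands kept their rank in the order of naive means.

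The spread between allograft libraries was small for most ligands. The highest over the lowest allograft CPM ran from 1.07 for Ltb to 2.99 for Fasl, with a median of 1.57 over the 9 tested members. Over the 15014 tested genes with a count in every allograft library, the median was 1.84.

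**Figure D4:**
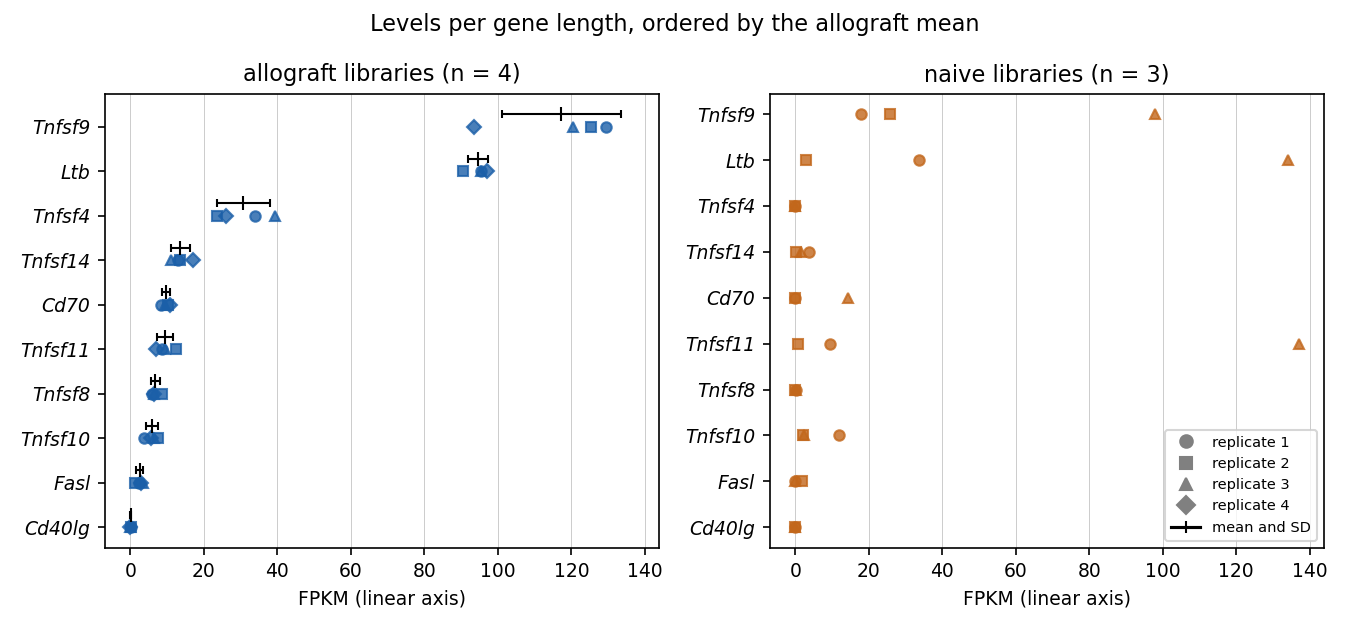
FPKM of the 10 ligands in the 4 allograft libraries (left) and the 3 naive libraries (right), on a linear axis, ordered by the allograft mean. Points are libraries, with 1 symbol shape per replicate number, and black bars are the allograft mean and SD. Tnfsf9 and Ltb lie highest in the allografts, at 117 and 94.6 FPKM on average, followed by Tnfsf4 at 30.7 FPKM, while in the naive libraries the points of Ltb run from 2.89 to 134 FPKM.

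Several of the genes are neighbours in the genome. On chromosome 17, Tnfsf9, Cd70 and Tnfsf14 follow each other at gaps of 38.2 and 39.7 kb, and Ltb lies 3.06 kb from Tnf, which lies 1.158 kb from Lta. On chromosome 1, Tnfsf4 lies 76.3 kb from Tnfsf18, the ligand of GITR, and Tnfsf18 lies 275 kb from Fasl. Tnfsf18 had 0 counts in every naive library, as did Tnfsf4, and 1.23, 1.08, 3.97 and 2.85 CPM in allograft replicates 1 to 4, at least 35.8-fold above the naive floor. On chromosome 4, Tnfsf8 lies 86.2 kb from Tnfsf15, which held 44 counts in naive replicate 2, 8 counts in allograft replicate 4 and 0 elsewhere.

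The other ligands of the family were tested in the same fit. Of the 8 genes, 6 were tested and 0 passed an adjusted p of 0.05 with edgeR, and 2, Tnfsf18 and Lta, had an unadjusted p under 0.05, as did 10.3% of all genes tested. DESeq2 called these 2 (5.95% of all genes tested), and limma on log2(FPKM + 0.1) called 1 of them, Lta (1.18% of all genes tested). For Tnfsf18 the edgeR adjusted p was 0.144, and 0.0528 without naive replicate 2. Lta, which encodes lymphotoxin alpha, had 0, 0.550 and 0.551 CPM in the naive and 18.1, 12.2, 9.08 and 8.38 CPM in the allograft libraries (log2 fold change 4.68, SE 1.64, edgeR adjusted p = 0.343). The groups did not overlap for either gene. The median log2 fold change of the 6 was 0.69, with Tnfsf18 at its bound too, against -0.01 over all genes tested and 1.19 over the 9 tested members. No median is given for these genes without naive replicate 2, since Tnfsf12, Tnfsf13 and Tnfsf18 then had no more than 3 counts in either naive library.

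Among the 13 receptors of the members, 12 were tested and 0 passed with edgeR, while 2, Tnfrsf9 and Tnfrsf22, had an unadjusted p under 0.05 (10.3% of all genes tested) and were called by DESeq2 (5.95%). Their median log2 fold change was 0.37. Leaving out naive replicate 2 moved it to 1.01, and 1 of the 12, Cd40, then passed (3.1% of all genes tested). Tnfrsf9, the receptor 4-1BB for the product of Tnfsf9, had 1.75, 0.242 and 2.43 CPM in naive and 22.8, 12.7, 14.9 and 13.2 CPM in allograft libraries (log2 fold change 3.36, SE 0.90, edgeR adjusted p = 0.230). Tnfrsf22, a decoy receptor for TRAIL, had 9.52, 1.297 and 49.8 CPM in naive and 1.18 to 3.44 CPM in allograft libraries (log2 fold change -3.25, SE 1.12, edgeR adjusted p = 0.341). Naive replicate 2 lay inside the allograft range of Tnfrsf22.

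Tnfrsf4, which encodes OX40, the receptor of the Tnfsf4 product, is named after its values were seen. Its naive levels were 1.87, 0 and 16.3 CPM and its allograft levels 102, 95.3, 81.4 and 60.95 CPM. The groups did not overlap, but the fitted log2 fold change of 3.75 (SE 1.63) had an edgeR adjusted p of 0.498, and 3.16 had 0.124 without naive replicate 2. In the allografts OX40 transcripts stood at 53.9 ± 11.4 FPKM (SD, n = 4) and those of its ligand at 30.7 ± 7.26 FPKM, so that both were present in the same libraries.

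Of the 21 adaptor and NF-kappaB genes downstream of these receptors, all were tested and 0 passed with edgeR or DESeq2. The median log2 fold change was 0.17. Leaving out naive replicate 2 moved it to -0.29, and 1 of the 21, Traf5, then passed (3.1% of all genes tested). Nfkb2, a subunit of the alternative NF-kappaB pathway, was the 1 gene with an unadjusted p under 0.05. It had 47.2, 17.0 and 119 CPM in naive and 168 to 225 CPM in allograft libraries (log2 fold change 1.60, SE 0.55, edgeR adjusted p = 0.341). Rela followed with 60.8, 30.2 and 17.96 CPM in naive and 64.4 to 90.9 CPM in allograft libraries (0.92, SE 0.43, edgeR adjusted p = 0.547).

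Of the 7 genes for processing and release of membrane ligands, 6 were tested and 0 passed with edgeR or DESeq2, with 0 at an unadjusted p under 0.05. Their median log2 fold change was 0.77. The smallest p belonged to Furin, a proprotein convertase, with 224, 9.41 and 421 CPM in naive and 381 to 581 CPM in allograft libraries (1.12, SE 0.90, edgeR adjusted p = 0.774). Sppl2a, an intramembrane protease, had 23.5, 25.3 and 26.1 CPM in naive and 27.3 to 55.8 CPM in allograft libraries (0.46, SE 0.39, edgeR adjusted p = 0.788).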

How the data were processed

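RNA of sorted ILC2s was measured in 3 naive and 4 allograft libraries. Sample titles gave each library's group and number, and columns were matched by library name. The authors deposited counts per gene, which are whole numbers, and FPKM, which was proportional to counts per gene length and library (SD of that ratio at most 0.0033 over 7340 genes). Per the submitters' processing notes, FastQC 0.11.5, STAR 2.5.3a, StringTie 1.3.1c and DESeq2 1.16.1 were used with build mm10. The annotation and the use of strand are not given in the sources used here.

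The counts were fitted with edgeR 4.0.16 (R 4.3.3; quasi-likelihood, TMM, filterByExpr, no covariate) over all genes, with Benjamini-Hochberg adjustment at 0.05. Alternatives were DESeq2 1.42.0, DESeq2 size factors, other filters, limma 3.58.1 on log2(FPKM + 0.1), a replicate block and each library left out. Coordinates and overlaps came from GENCODE M21 (GRCm38, the same assembly as mm10), and promoter windows from RefSeq. Where every naive library held at most 3 counts, folds are bounds against the mean floor of 3 counts per naive library. Such bounds allow for counting error only.

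The members and lists were chosen with earlier results of these data known. Named genes were the 10 members, up to 6 genes past the threshold per list or otherwise the 2 with the smallest p, 4 ILC2 markers, other cells' markers that were at 0 or set a sum, and the 5 genes most like Tnfsf4. Gene totals in the libraries ran from 29107326 to 53044907 counts. The p-values measure the spread between these pools.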

Additional observations from a re-analysis of the deposited data

Results flagged for a closer look

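In the 4 allograft libraries, 41 values, those of named genes and marker sums, were searched for 1 library far outside the range of the remaining 3. This was found once. Igha, among the genes nearest to Tnfsf4 in pattern, had 152.9 CPM in allograft replicate 1 against 42.0 to 54.4 CPM in the others. Chance alone flags about 1 in 20 such values. None of the 10 ligands stood out in this way.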

How the results depend on the processing

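The number of ligands with an adjusted p under 0.05 was 1 of 9 with all libraries and 0 to 3 with 1 library left out. It was 3 with DESeq2, 2 with limma on FPKM and 0 with a replicate block. Over all genes, 6 passed, 0 to 560 with 1 library left out (0 without any 1 allograft library, 107 without naive replicate 1, 560 without naive replicate 2), 1012 with DESeq2, 201 with limma and 0 with the replicate block. For the other ligands the count of 0 became 2 with DESeq2 and 1 with limma. For the receptors it became 2 with DESeq2 and 0 to 1 with a library left out, and for the adaptors 0 to 1. With 1 library left out, Tnfsf10 ran from -0.33 to 1.1 and Tnfsf11 from -3.01 to 0.85. Tnfsf10 turned negative in 6 of 13 alternatives, to -0.11 with DESeq2 size factors and with DESeq2, -0.33 without naive replicate 2 or 3, -0.13 without allograft replicate 2 and -0.03 without allograft replicate 3. Tnfsf11 turned to 0.85 without naive replicate 3. The other 7 tested ligands kept their direction in all 13 alternatives. DESeq2 size factors moved the median of all genes from -0.01 to -0.20, the replicate block to 0.55, limma to 0.52 and leaving out naive replicate 2 to 0.23. The replicate numbers gave no pairing: deviations of same-numbered libraries correlated at 0.0169, -0.0196 and 0.036, and the block was fitted for comparison only. The cause of these differences was not tested. Low counts limit Cd40lg, with at most 15 counts in any library, and the naive levels of Tnfsf4, Cd70 and Fasl at 0 counts. Depth alone did not order the libraries by genes detected. Naive replicates 1 and 3 had 53044907 and 43591167 counts and 15820 and 13864 genes detected. Allograft replicate 4 had 29107326 counts and 21354 genes. The cause of this was not tested.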
